A study of Mus musculus with 18 samples.

Results

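Cells stimulated with PIC were compared with cells stimulated with LPS, without TBHQ, over all genes of the count table. The comparison used 6 of the 18 samples of the series, 3 with PIC and 3 with LPS. A further 3 samples of untreated control cells served to tell which genes each stimulus had moved. The cells were RAW264.7, an immortalized mouse macrophage line, and the methods of the study describe 3 biological replicates per condition. Whether these were separate experiments or wells treated in parallel is not stated. The tests below measure the spread between these samples only. LPS, the lipopolysaccharide of the bacterial outer membrane, was given at 0.1 µg/mL for 12 h. PIC, the synthetic double-stranded RNA poly(I:C), was given at 20 µg/mL for 12 h. The control cells received neither stimulus. When they were collected is not clearly stated in the sources used here. A change with time in culture therefore cannot be told apart from a response shared by both stimuli. The other 9 samples held TBHQ, an antioxidant food additive given at 5 µM for 4 h, alone or before a stimulus. Since each stimulus was given at 1 dose and 1 time, the kind of stimulus and its dose cannot be told apart.

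LPS is bound by CD14 and the TLR4 complex, which signals through the adaptor MyD88 at the cell surface and through TRIF from endosomes. PIC is sensed in endosomes by TLR3, which uses TRIF without MyD88, and in the cytosol by the RNA sensors MDA5 and RIG-I, which signal through MAVS. All of these routes activate NF-κB, which drives cytokine, chemokine and feedback inhibitor genes. TRIF and MAVS also activate IRF3, which induces interferon β, and the interferon receptor then switches on antiviral interferon-stimulated genes.

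The depth was 14423390 to 14502107 counts in the LPS samples, 15178175 to 18851626 in the PIC samples and 14599770 to 15932183 in the control samples. Of 56748 genes listed, 13691 had enough counts to be tested. Levels are given as CPM, counts relative to library size after TMM scaling, which assumes that most genes do not differ between samples. FDR stands for the p-value of edgeR's quasi-likelihood test after Benjamini-Hochberg adjustment over the 13691 genes, and log2FC for the log2 fold change with its standard error (SE). At an FDR below 0.05, 2035 genes were higher with PIC (14.9% of the genes tested) and 1752 were lower (12.8%). Most of these differences were small. The median size of the log2FC was 0.30 over the 3787 genes, and 2897 of them lay under 0.5. A log2FC above 1 was reached by 190 genes on the higher side and 62 on the lower side. The numbers on each side depended on the scaling. When the counts were scaled by the sample totals alone, 985 genes were higher and 4373 lower, which put 18.4% of the calls on the higher side, against 53.7% with TMM.

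The 3787 genes were then divided by their response to each stimulus against the control. Both comparisons used the same control samples, so their values are set side by side and no correlation between them is given. A response was an FDR below 0.05 with a log2FC beyond 1 in either direction. No response was a 95% interval of the log2FC that lay wholly between -0.5 and 0.5, or within 1.41-fold of the control. By this rule 477 genes responded to both stimuli in the same direction and more strongly to PIC, 329 of them raised and 148 lowered. Only 10 genes responded to both and more strongly to LPS, 9 raised and 1 lowered. 12 genes were PIC-specific, with a response to PIC and none to LPS. The counts of LPS-specific genes and of genes moved in opposite directions, with a response to at least 1 stimulus, were 0 with edgeR. They were also 0 with DESeq2, and 0 in each tool at an unadjusted p below 0.05. Other settings moved these small classes. DESeq2 gave 7 PIC-specific genes, and total count scaling 20 PIC-specific and 1 LPS-specific. An interval of 0.8 gave 134 and 3, and an FDR below 0.05 alone as a response 781 and 230. PIC-specific genes numbered 3 with an interval of 0.3 and 2 with a response limit of 1.5, and 1 gene was LPS-specific without the filter. A further 559 genes responded to 1 stimulus while the response to the other was neither past the limit nor inside the interval, and are called intermediate. The remaining 2729 genes reached the response limit with neither stimulus, which was 72.1% of the genes that differed. The classes were made from these same values, so no test is attached to their counts.

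**Figure D1:**
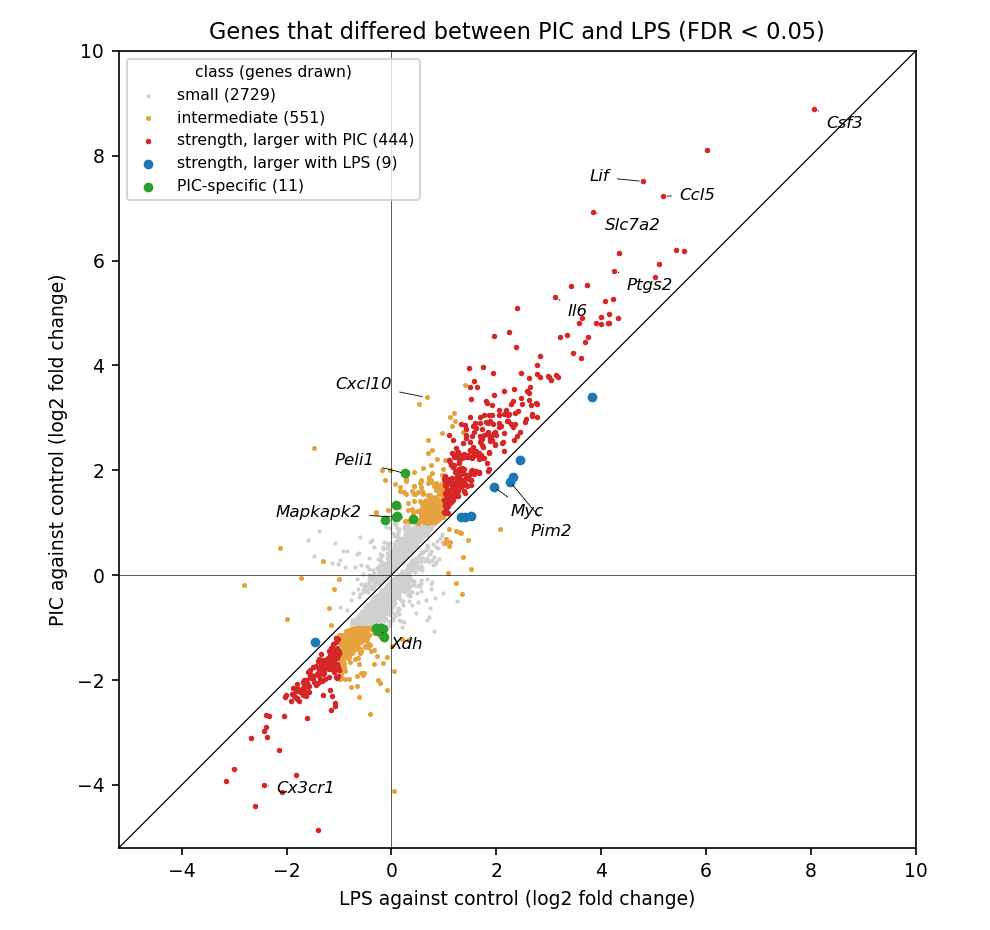
Log2 fold change against the control with LPS (horizontal axis) and with PIC (vertical axis) for genes that differed between the stimuli at an FDR below 0.05, 1 point per gene, coloured by class. The line marks equal responses, both axes share the 3 control samples, and 43 genes at or under 3 counts in every control sample are not drawn. By the definition of the classes, raised genes larger with PIC (red) lie above the line and lowered ones below it. Genes larger with LPS (blue) lie on the other side.

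The PIC-specific class was small and its members differed in what they do. Only 5 of the 12 genes stayed in the class under all 4 library scalings described below, and which 5 is not listed here. Genes named for their rank, here and below, had to show no overlap between PIC and LPS samples. *Peli1* (ENSMUSG00000020134, chromosome 11, 21041291 to 21100323, plus strand) encodes Pellino-1, a ubiquitin ligase of Toll-like receptor signalling. It measured 62.7, 59.6 and 56.1 CPM in the control samples, 71.9, 74.0 and 68.0 with LPS, and 231.3, 229.6 and 223.0 with PIC. All PIC samples lay far above the LPS samples, which were themselves just above the control. The log2FC was 1.68 between PIC and LPS (SE 0.045, FDR = 7.9e-26), 1.94 for PIC against the control and 0.26 for LPS against the control. *Mapkapk2* (ENSMUSG00000016528, chromosome 1, 130981437 to 131025563, minus strand) encodes the kinase MK2, which acts below p38. It measured 344.3, 321.4 and 326.4 CPM in the control, 351.5, 342.5 and 359.3 with LPS, and 722.0, 720.4 and 695.5 with PIC. The LPS and control samples overlapped, and PIC stood at 2.03 times the level with LPS.

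*Ptch1*, the receptor for Hedgehog ligands, measured 43.0, 38.0 and 39.1 CPM with LPS and 97.8, 99.7 and 89.0 with PIC. Its control samples, at 33.6, 37.7 and 41.1 CPM, overlapped with those of LPS. *Nfkbie*, which encodes the NF-κB inhibitor IκBε, measured 19.5, 16.7 and 18.1 CPM with LPS and 34.9, 33.7 and 41.5 with PIC. Its log2FC against the control was 1.13 with PIC and 0.10 with LPS. *Tgm2*, a transglutaminase, had a log2FC of 1.06 with PIC and -0.13 with LPS, and *Acsl1*, an acyl-CoA synthetase, 1.07 and 0.40. The lowered members were *E2f2*, *Xdh*, *Mgst2*, *Zfp362* and *Cox6a2*. The cell cycle factor *E2f2* measured 17.0, 15.4 and 17.0 CPM with LPS and 8.38, 9.14 and 9.40 with PIC, against 18.3, 19.3 and 17.8 in the control. *Xdh*, which encodes xanthine dehydrogenase of purine breakdown, had a log2FC against the control of -1.06 with PIC and -0.25 with LPS.

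The rule for no response sets a limit on the size and does not say that LPS had no effect. Of the 11 PIC-specific genes with more than 3 counts in an LPS or control sample, 5 still differed between LPS and the control at an FDR below 0.05. The limit also decided membership. *Acsl1*, with an interval of 0.31 to 0.50 for LPS against the control, and *Cox6a2*, with -0.49 to 0.19, lay just inside, while *Fam13c* (-0.51 to -0.10) and *Recql4* (-0.53 to -0.23) lay just outside. The last 2 were chosen for their place at the limit after their values were seen. The other PIC-specific gene was *Alpk2*, at 0 counts in every control and LPS sample and at 26, 11 and 41 counts with PIC. Its level with PIC was at least 8.07-fold higher than with LPS, taken against a floor of 3 counts in each LPS sample. Its interval for LPS has no width, since both groups were at 0, and says nothing about a response.

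Among intermediate genes, 535 of 559 responded more strongly to PIC and 24 to LPS. The weaker response passed an FDR below 0.05 in the same direction in 465 of them, in the opposite direction in 0, and did not pass in 94, of which 80 had a mean under 50 counts. *Cxcl10* (ENSMUSG00000034855, chromosome 5, 92494497 to 92496748, minus strand), an interferon-inducible chemokine that draws T cells, showed the largest difference of this class among named genes. It measured 8.96, 7.40 and 6.94 CPM in the control, 12.9, 13.0 and 11.1 with LPS, and 76.8, 83.4 and 83.1 with PIC. LPS lay a little above the control and PIC far above both. The log2FC was 2.72 between PIC and LPS (SE 0.080, FDR = 1.1e-24), 3.39 against the control with PIC and 0.67 with LPS. *Malt1*, a paracaspase that relays signals to NF-κB, measured 77.4, 78.7 and 79.6 CPM with LPS and 292.6, 311.0 and 268.0 with PIC, against 49.0, 48.3 and 49.1 in the control. *Cmpk2*, an interferon-induced mitochondrial nucleotide kinase, measured 145.8, 135.7 and 133.7 CPM with LPS and 417.5, 453.3 and 410.0 with PIC. For *Pde4b*, which degrades cyclic AMP, the log2FC between PIC and LPS was 1.63, for the myeloid receptor *Cd300e* 1.56, and for *Fbxo15* 2.19. The lowered intermediate genes were led by the actin regulator *Avil* at -1.35 and the protease *Mmp19* at -1.05. *Wdr90* followed at -0.94, *Cep72* at -0.92, *Pcyox1l* at -0.91 and the semaphorin co-receptor *Nrp1* at -0.88.

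In the class larger with PIC, both stimuli moved the genes and PIC moved them further, by the definition of the class. The order of the medians that follow comes from this definition. Over its 329 raised genes the median log2FC against the control was 2.57 with PIC and 1.68 with LPS. With the 9 genes at 0 counts in the control set to their lower bounds, the medians were 2.55 and 1.65. Over the 148 lowered genes they were -1.87 and -1.34. *Ptgs2* (ENSMUSG00000032487, chromosome 1, 149975782 to 149983978, plus strand), the inducible cyclooxygenase of prostaglandin synthesis, measured 82.1, 76.1 and 74.9 CPM in the control. With LPS it measured 1623, 1491 and 1322 CPM, and with PIC 4345, 4184 and 4478. The 3 groups were well apart, and PIC stood at 2.93 times LPS (log2FC 1.55, SE 0.048, FDR = 4.2e-24). *Lif*, a cytokine of the interleukin-6 family, measured 38.8, 30.0 and 28.2 CPM with LPS and 225.9, 209.2 and 196.6 with PIC, from 1.36, 0.86 and 1.24 in the control. *Slc7a2* (ENSMUSG00000031596, chromosome 8, 41315433 to 41375345, plus strand), a transporter of arginine, had the highest log2FC of the genes named by rank, at 3.09 (SE 0.16, FDR = 1.1e-17). It measured 2.71, 3.60 and 4.57 CPM with LPS and 30.5, 33.1 and 29.4 with PIC.

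*Serpinb2*, an inhibitor of plasminogen activators, was at 0 counts in every control sample. It measured 12.7, 12.3 and 9.84 CPM with LPS and 74.7, 71.5 and 70.1 with PIC, at least 62.7-fold and 389.9-fold higher than the control, taken against 3 counts per control sample. *Csf2*, which encodes GM-CSF, was also at 0 in the control, and had 17, 14 and 18 counts with LPS and 118, 77 and 77 with PIC. *Ccrl2*, a non-signalling receptor for chemerin, measured 22.3, 23.9 and 21.8 CPM with LPS and 137.8, 147.2 and 131.0 with PIC. *F3*, the tissue factor that starts coagulation, had a log2FC between PIC and LPS of 2.47, *Il27* 2.40 and the elastase *Mmp12* 2.22. In all of these genes each PIC sample lay above each LPS sample, which the rule for naming required.

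On the lowered side of this class, the fractalkine receptor *Cx3cr1* (ENSMUSG00000052336, chromosome 9, 119730682 to 119898945, minus strand) measured 28.0, 25.3 and 31.4 CPM in the control. It measured 5.28, 5.26 and 5.20 with LPS and 2.38, 1.63 and 1.34 with PIC. The order was control, LPS, PIC with no overlap, which the rule for naming required between LPS and PIC. LPS stood at 2.98 times PIC (log2FC -1.58, SE 0.19, FDR = 3.4e-08). *Ankle1*, a DNA endonuclease, had a log2FC between PIC and LPS of -1.20, the DNA glycosylase *Neil3* -0.88, the sterol hydroxylase *Cyp27a1* -0.80 and *Rassf2* -0.75. *Ttc39aos1*, a long non-coding RNA on the opposite strand to *Ttc39a*, had -1.42. Whether strand was used in counting is not given in the sources used here, so its reads and those of its partner may not be separable.

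The 10 genes larger with LPS differed little between the stimuli, with a median size of the log2FC of 0.35. *Pim2* (ENSMUSG00000031155, chromosome X, 7744501 to 7749671, plus strand), a survival kinase, measured 8.12, 8.81 and 9.24 CPM in the control, 44.9, 40.8 and 39.7 with LPS, and 32.4, 29.8 and 28.3 with PIC. Each LPS sample lay above each PIC sample, a separation that the rule for naming required (log2FC -0.47, SE 0.078, FDR = 1.2e-05). *Myc*, a growth-promoting transcription factor, measured 73.6, 74.0 and 83.3 CPM with LPS and 62.0, 64.2 and 66.3 with PIC, from 19.5, 23.1 and 17.3 in the control. *Clec4n*, which encodes the fungal receptor Dectin-2, measured 23.6, 22.2 and 19.5 CPM with LPS and 17.4, 17.6 and 13.5 with PIC. The others were the scavenger receptor *Stab1*, *Rnf183*, *Crybg2*, the Notch ligand *Jag1*, the transcription factor *Maf*, the pseudogene *Gm19026* and the integrin *Itga4*, the only lowered one. *Maf* had the largest difference (log2FC -1.88), at a mean of 2.29 CPM with LPS and 0.60 with PIC. *Jag1*, *Maf*, *Gm19026* and *Itga4* were named after their values were seen.

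Some genes fell in neither class although the stimuli differed clearly. *Angptl2*, a secreted angiopoietin-like protein, measured 9.09, 9.66 and 10.2 CPM in the control, 12.0, 13.7 and 14.3 with LPS, and 5.05, 5.31 and 7.02 with PIC. LPS was above the control and PIC below it, with a log2FC of 0.46 and -0.72 that did not reach the limit of 1. When an FDR below 0.05 alone counted as a response, 15 genes moved in opposite directions. They included *Angptl2* and, named after their values were seen, *Tlr2* (0.53 with PIC and -0.16 with LPS) and *Ccne2* (-0.29 and 0.28), and their median log2FC had a size of 0.14 with PIC and 0.16 with LPS. *Icam1*, the adhesion molecule bound by leukocyte integrins, measured 90.7, 96.3 and 101.7 CPM with LPS and 160.2, 162.9 and 176.3 with PIC, against 94.2, 90.2 and 84.8 in the control. PIC lay above both other groups, which overlapped, but its log2FC of 0.89 missed the limit of the PIC-specific class. *Plxna2*, *Ppm1k*, *Nlrc4* and *Gask1b* had the same form, with a log2FC between the stimuli of 0.86, 0.92, 0.77 and 0.76. *Sla*, *Car6*, *Paqr3*, *Xndc1* and *Abca8b* were lower with PIC, at -1.04, -0.93, -0.87, -0.85 and -0.83. *Mfap1b* was higher at 1.23, but it has a near-identical copy and its value is uncertain.

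**Figure D2:**
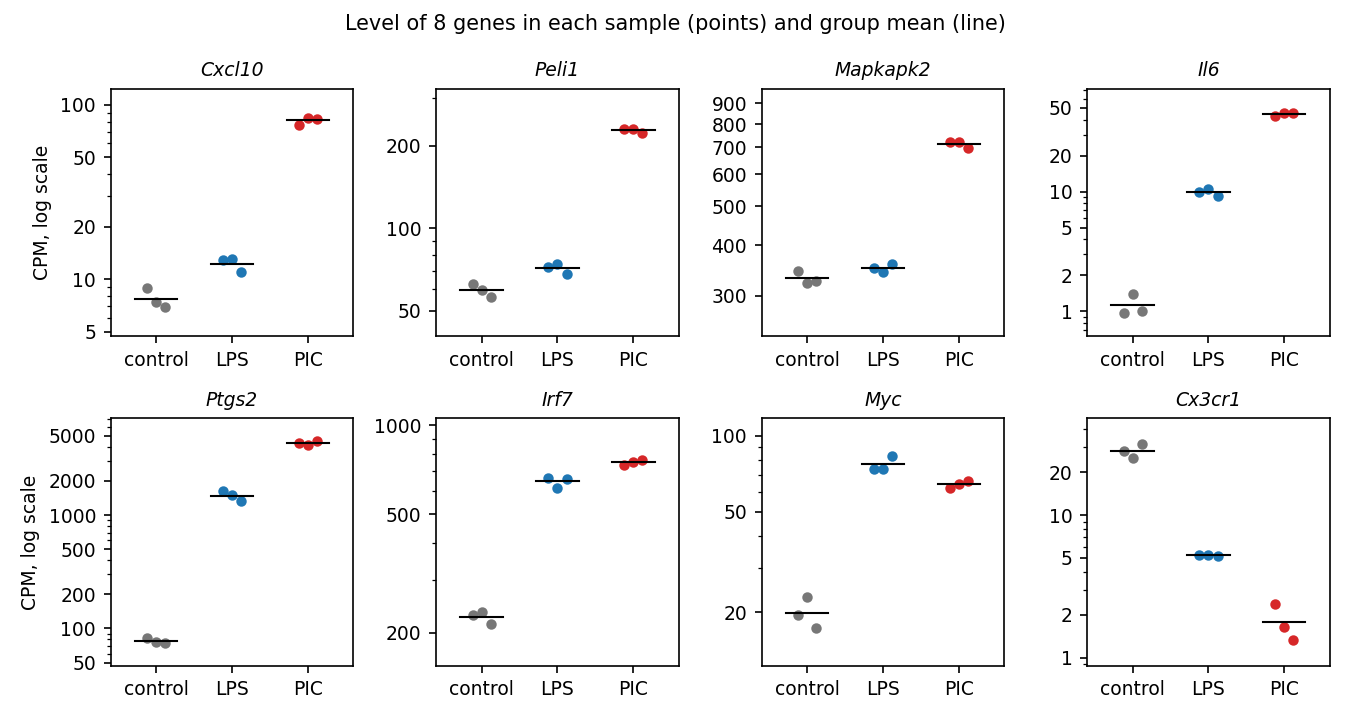
Level of 8 genes in CPM after TMM scaling (log axis) in the 3 control, 3 LPS and 3 PIC samples, 1 point per sample, with the group mean as a line. *Peli1* and *Mapkapk2* are high with PIC and close to the control with LPS, though slightly above it at an FDR below 0.05. *Il6* and *Ptgs2* rise with both stimuli and more with PIC, and *Myc* is highest with LPS.

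By role, the list of Toll-like receptors with their adaptors and kinases, which holds other receptors beside TLR4 and TLR3, differed modestly. Of 23 members tested, 12 were higher with PIC and 4 lower, with a median log2FC of 0.23 against -0.01 over all genes tested. With total count scaling 11 were higher and 7 lower. Over all genes tested, 14.9% were higher and 12.8% lower with TMM, and 7.19% and 31.9% with total counts. These shares are the comparison for each list that follows. *Tlr4* measured 87.3, 100.6 and 89.0 CPM with LPS and 79.8, 72.8 and 86.1 with PIC, with each PIC sample below each LPS sample by a small margin (log2FC -0.21, SE 0.062, FDR = 0.0091). *Tlr3* measured 17.5, 18.1 and 18.2 CPM with LPS and 20.2, 22.9 and 19.96 with PIC, and its log2FC of 0.23 did not pass the test (FDR = 0.0735). *Cd14*, the LPS co-receptor, measured 2183, 2054 and 2245 CPM with LPS and 2741, 2885 and 2852 with PIC, from 1451, 1398 and 1340 in the control. The kinase *Ikbke* had the highest value of the list at 0.72 and the DNA sensor *Tlr9* the lowest at -1.09. Of 14 members of cytosolic RNA and DNA sensing, 8 were higher with PIC and 2 lower, with a median of 0.21, and with total counts 7 and 3. *Ifih1* (ENSMUSG00000026896, chromosome 2, 62426142 to 62476599, minus strand), which encodes MDA5, measured 119.4, 117.0 and 114.4 CPM with LPS and 237.8, 245.1 and 249.7 with PIC. *Nlrp3*, an inflammasome sensor that the list holds beside the RNA and DNA sensors, had the highest log2FC, at 1.46. *Mavs* had the lowest, at -0.20.

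Transcripts of type I interferons were near the limit of detection at 12 h. Of 18 genes of interferons and their receptor, 15 had no count in any LPS or PIC sample and only the receptor genes *Ifnar1* and *Ifnar2* could be tested. *Ifnb1* had 3, 1 and 0 counts in the control, 0, 1 and 2 with LPS, and 12, 4 and 6 with PIC. The PIC samples were the highest, but these counts are too low for a test. Among 14 genes of interferon signalling, 7 were higher with PIC and 0 lower, with a median log2FC of 0.16 that fell to 0.03 with total counts, where 5 were higher and 1 lower. *Irf7*, the interferon regulatory factor that amplifies the response, measured 664.7, 615.3 and 660.8 CPM with LPS and 735.4, 750.3 and 761.9 with PIC, from 229.9, 235.2 and 214.2 in the control (log2FC 0.21). It lost its call with total count scaling. *Irf1* had a log2FC of 0.46 and *Socs3*, a feedback inhibitor of cytokine receptors, 0.67.

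The antiviral interferon-stimulated effectors were mostly higher with PIC, 42 of 52 tested, and 0 were lower, with a median log2FC of 0.26. With total count scaling 28 were higher and 1 lower. *Isg15*, the ubiquitin-like modifier, measured 207.5, 200.1 and 209.3 CPM with LPS and 348.0, 388.1 and 401.4 with PIC, from 76.2, 74.5 and 67.4 in the control. *Ifit1*, which binds viral RNA ends, measured 70.4, 68.1 and 67.6 CPM with LPS and 157.3, 162.3 and 149.6 with PIC. In both genes the 3 groups were apart, in the order control, LPS, PIC. *Mx1*, an antiviral GTPase, was low, at 0.97, 1.18 and 2.15 CPM with LPS and 4.04, 4.18 and 3.54 with PIC. After *Cxcl10* the highest members were the oligoadenylate synthetase-like gene *Oasl1* at 2.10 and viperin, *Rsad2*, at 1.91. *Oas1g* was the lowest, at -0.10, and did not differ past the threshold. Of the 15 interferon-inducible GTPases tested, 12 were higher and 1 lower, with a median of 0.64. *Gbp8* was the lower one (log2FC -1.80), at 6, 12 and 13 counts with LPS and 5, 1 and 3 with PIC. For MHC class I and the immunoproteasome 9 of 21 were higher and 0 lower, with a median of 0.14, but with total count scaling 2 were higher and 1 lower. The 2 higher genes lie near the share over all genes tested with that scaling, where 7.19% were higher and 31.9% lower. Members of the OAS, IFIT, GBP and H2 families share long stretches of sequence, and how shared reads were counted is not given in the sources used here, so single members are uncertain.

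Of 24 NF-κB subunits and feedback inhibitors, 16 were higher with PIC and 1 lower, with a median log2FC of 0.34, and with total counts 13 and 3. *Nfkbia*, which encodes the inhibitor IκBα, measured 219.0, 206.4 and 221.3 CPM with LPS and 390.0, 399.6 and 403.8 with PIC, from 88.0, 86.5 and 79.4 in the control. The deubiquitinase *Tnfaip3* had the highest log2FC at 1.33 and *Nfkbid* the lowest at -0.40.

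CXC chemokines and inflammatory cytokines had the highest medians of all lists. Of 18 inflammatory cytokines tested, 15 were higher with PIC and 0 lower, with a median log2FC of 1.00, and 10 of them were in the class larger with PIC. *Tnf* measured 826.6, 800.5 and 793.8 CPM with LPS and 1677, 1694 and 1819 with PIC, from 214.9, 193.0 and 180.3 in the control. *Il6* (ENSMUSG00000025746, chromosome 5, 30218112 to 30224979, plus strand) measured 9.87, 10.6 and 9.21 CPM with LPS and 43.0, 45.2 and 45.7 with PIC, from 0.97, 1.41 and 1.00 in the control. *Il1b* rose from 1, 2 and 1 counts in the control to 1444, 1144 and 1079 with LPS and 3478, 3767 and 3533 with PIC. *Csf3*, the granulocyte growth factor, measured 1294, 1213 and 1264 CPM with LPS and 2286, 2213 and 2209 with PIC. In each of these genes PIC was highest without overlap. *Il12b* and *Il10* were too low to test, with 2, 0 and 0 and 5, 1 and 3 counts with LPS and 8, 8 and 10 and 7, 20 and 20 with PIC. Of 9 CC chemokines tested 7 were higher and 0 lower, with a median of 0.76, led by *Ccl5* at 2.05. All 5 CXC chemokines tested were higher, with a median of 1.75, and 4 were with total count scaling.

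Feedback and anti-inflammatory genes went the same way, with 14 of 16 higher, 0 lower and a median log2FC of 0.80. The mannose receptor *Mrc1* was the highest at 1.34, with 28, 23 and 37 counts with PIC and 11, 16 and 6 with LPS. Of 20 inflammatory enzymes 17 were higher and 0 lower, with a median of 0.76. *Acod1*, which makes itaconate, measured 2452, 2314 and 2294 CPM with LPS and 5151, 5339 and 5184 with PIC, from 170.7, 127.6 and 123.0 in the control. *Nos2*, the inducible nitric oxide synthase, measured 767.5, 675.2 and 721.3 CPM with LPS and 1058, 1052 and 1020 with PIC. PIC stood at 2.22 times LPS for the first and at 1.45 times for the second. Of 18 costimulation and adhesion genes 13 were higher and 1 lower, with a median of 0.37. *Cd40*, which receives help from T cells, measured 42.6, 44.0 and 43.7 CPM with LPS and 66.9, 66.5 and 63.5 with PIC. The lectin receptor *Clec4e* was highest at 1.53 and the Fc receptor *Fcgr1* lowest at -0.54. Of 22 immediate early and AP-1 factors 13 were higher and 2 lower, with a median of 0.28, and with total counts 8 and 3. *Maff* was the highest at 0.84, and *Myc* and *Cebpd* were the lower ones. Of 27 apoptosis and necroptosis genes 14 were higher and 2 lower, with a median of 0.15 (10 and 4 with total counts, with a median of 0.02), from the death receptor *Fas* at 1.14 to *Bcl2* at -0.72.

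Cell cycle genes were lower with PIC than with LPS. Of 40 genes of DNA replication and G1/S, 35 were lower and 1 higher, with a median log2FC of -0.42. The 1 higher gene was *Cdkn1a*, which encodes the cell cycle inhibitor p21. It measured 382.4, 356.5 and 378.3 CPM with LPS and 497.7, 478.6 and 497.2 with PIC, from 155.0, 136.2 and 137.4 in the control. Of 35 genes of mitosis and G2/M, 30 were lower and 0 higher, with a median of -0.36. Against the control the median of the mitosis list was -2.05 with PIC and -1.66 with LPS, and all 30 were in the class larger with PIC. The replication list had -0.86 with PIC and -0.43 with LPS. *Cenpf*, a kinetochore protein, had the lowest log2FC of the mitosis list, at -0.72, and after *E2f2* the licensing factor *Cdc6* had the lowest of the replication list, at -0.71. The same members numbered 35 and 30 under all 4 scalings. In bulk samples, fewer cells in a phase and less RNA per cell cannot be told apart.

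Several lists of metabolism and upkeep turned with the scaling. Of 22 Nrf2 target genes, 8 were higher and 3 lower with TMM, with a median log2FC of 0.06, and 6 were higher and 8 lower with total count scaling. *Hmox1*, which encodes heme oxygenase, measured 1771, 1649 and 1677 CPM with LPS and 1944, 2091 and 1982 with PIC, from 353.2, 326.6 and 335.1 in the control. Of 48 cytosolic ribosomal protein genes, 14 were higher and 0 lower with TMM, 3 and 0 with the upper quartile, and 0 and 18 with total count scaling. Glycolysis had 16 of 19 higher and 0 lower with TMM and 9 higher and 2 lower with total counts. Mitochondrially encoded genes had 7 of 12 higher and 0 lower with TMM and 4 higher and 0 lower with total counts. Sterol synthesis had 5 higher and 2 lower of 21, LXR targets 2 and 2 of 11, the ATF4 stress response 6 and 7 of 19, chaperones of the endoplasmic reticulum 5 and 4 of 20, and lysosomal hydrolases 8 and 3 of 29. With total counts these became 3 and 11, 0 and 5, 3 and 12, 0 and 13, and 4 and 15. Over all genes tested 7.19% were higher and 31.9% lower with total counts, against 14.9% and 12.8% with TMM, so all genes together turned the same way.

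**Figure D3:**
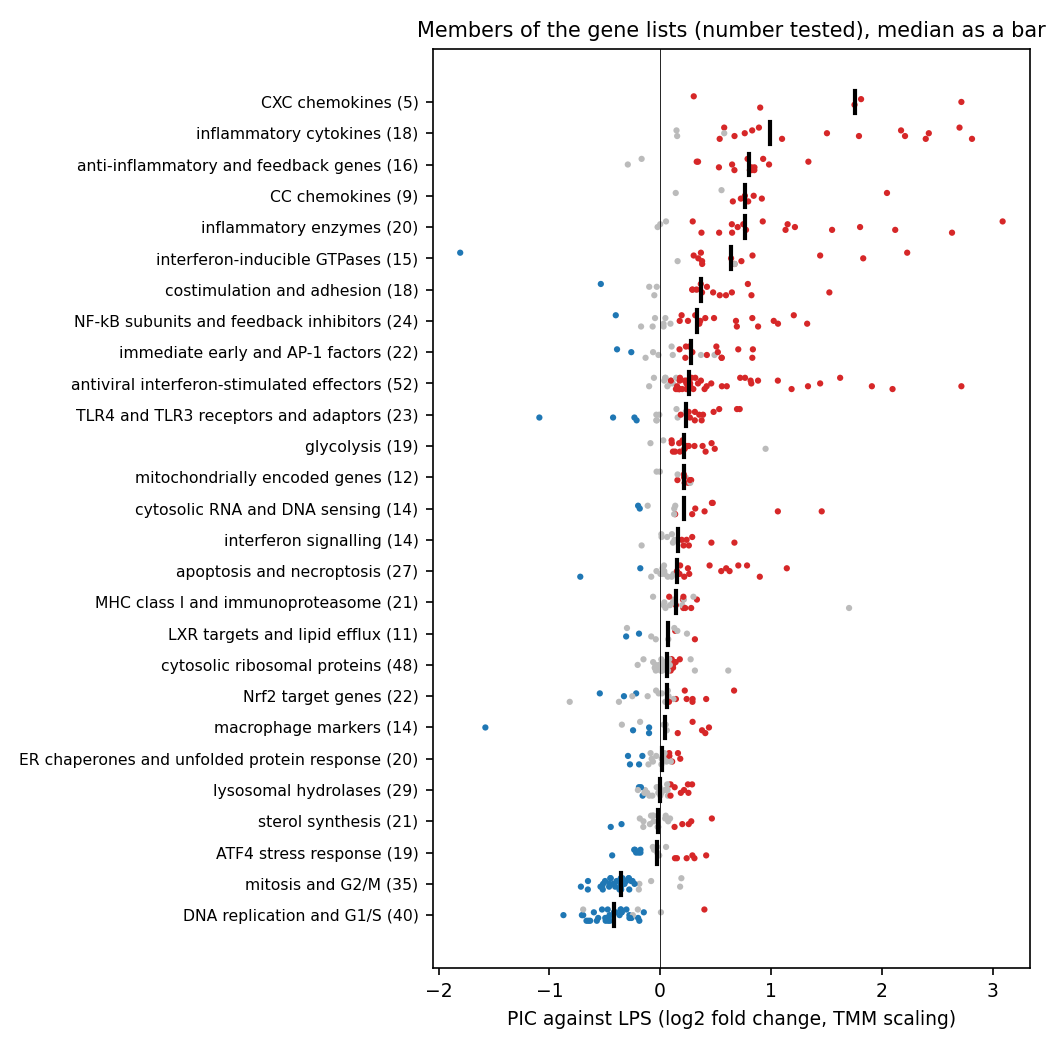
Log2 fold change between PIC and LPS, with TMM scaling, of the members tested of each gene list with at least 5 of them, 1 point per gene, with the list's median as a bar. Red marks genes higher and blue genes lower with PIC at an FDR below 0.05, and grey marks the rest. CXC chemokines and cytokines lie highest and the cell cycle lists lowest, and several lists with a median near 0, such as ribosomal proteins and Nrf2 targets, change side with total count scaling.

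The macrophage identity of the line was visible in every group. Of 15 macrophage markers 14 could be tested. Their levels summed to 10600.0, 10730.0 and 10217 CPM in the control, 9141, 8979 and 9274 CPM with LPS and 9060.1, 9033 and 9236 with PIC, and lysozyme, *Lyz2*, was the most abundant. With TMM the LPS and PIC samples overlapped in this sum and lay below every control sample. With total count scaling the sums were 9124, 9006 and 9242 with LPS and 8276, 8232 and 8451 with PIC, without overlap. Of the 14, 5 were higher and 4 lower with PIC, with a median log2FC of 0.04. With total count scaling 3 were higher and 5 lower, with a median of -0.09. Over all genes tested, 14.9% were higher and 12.8% lower with TMM, and 7.19% and 31.9% with total counts. *Csf1r*, the receptor for the growth factor M-CSF, measured 533.3, 503.7 and 536.5 CPM with LPS and 483.9, 463.3 and 520.2 with PIC, with overlap between the groups. Markers of other cell types were nearly absent. Of 27, 16 had no count in any LPS or PIC sample, and their sum was 1.60, 1.18 and 1.11 CPM with LPS and 1.59, 1.70 and 1.86 with PIC, mostly from *Kdr*. The defining T cell markers *Cd3e* and *Cd8a* and the collagens *Col1a2* and *Col3a1* were at 0 in all LPS and PIC samples.

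Promoters of 3 interferon-stimulated and 2 NF-κB genes, each with a match, are shown as examples of the motifs searched. Other genes named above, such as *Irf7* and *Ptgs2*, had a match to neither motif in the stretch searched. RefSeq windows of 300 bases, from 250 before to 50 after the gene start, were on assembly GRCm38.p6, which is not the build of the gene positions given above. They were matched by symbol for 9560 of the genes tested. The windows were searched on both strands for the core of the interferon-stimulated response element, GAAANNGAA, and for the κB consensus. The core occurred in 8.73% of these genes, and the κB consensus in 12.1%. Among the 235 raised genes larger with PIC that had a window, 42 (17.9%) held the core and 37 (15.7%) the κB consensus. Of those that differed over 2-fold between the stimuli, 12 of 68 (17.6%) held the core. Of the others 30 of 167 (17.96%) did, and the difference between these shares was not tested. Of 201 raised intermediate genes with a window, 28 (13.9%) held the core and 36 (17.9%) the κB consensus, and of 5 raised genes larger with LPS, 2 held the core. Of 5 raised PIC-specific genes with a window, 0 held the core and 1 the κB consensus. Of 39 antiviral effectors with a window, 22 (56.4%) held the core. A match describes the letters and does not show binding. In the lines that follow, capitals mark the core on either strand. *Cxcl10* (chr5:92348840-92349139, minus strand) held 1 match, *Ifit1* (chr19:34640639-34640938, plus strand) 3, of which 2 overlapped, and *Isg15* (chr4:156200769-156201068, minus strand) 3, each overlapping the next. The *Cxcl10* window also held 3 matches to the κB consensus, which are not marked, and the other 2 windows held 0.
Cxcl10: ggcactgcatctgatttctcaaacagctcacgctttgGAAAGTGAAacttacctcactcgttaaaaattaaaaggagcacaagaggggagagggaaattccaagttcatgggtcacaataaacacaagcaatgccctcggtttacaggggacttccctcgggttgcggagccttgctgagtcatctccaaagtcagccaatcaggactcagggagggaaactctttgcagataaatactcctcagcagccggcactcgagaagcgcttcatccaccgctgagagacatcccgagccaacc
Ifit1: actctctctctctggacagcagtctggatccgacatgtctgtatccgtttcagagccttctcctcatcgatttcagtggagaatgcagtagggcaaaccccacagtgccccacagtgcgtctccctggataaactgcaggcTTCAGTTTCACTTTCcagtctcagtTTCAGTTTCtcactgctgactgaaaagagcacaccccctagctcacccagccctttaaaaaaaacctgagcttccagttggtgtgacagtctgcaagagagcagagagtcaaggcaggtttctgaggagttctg
Isg15: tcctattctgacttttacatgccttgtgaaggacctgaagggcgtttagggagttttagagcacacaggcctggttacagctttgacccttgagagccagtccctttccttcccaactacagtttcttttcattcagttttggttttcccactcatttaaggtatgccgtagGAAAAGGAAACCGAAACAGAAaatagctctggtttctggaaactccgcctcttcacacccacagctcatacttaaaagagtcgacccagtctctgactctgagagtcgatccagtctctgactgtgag

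In the next pair capitals mark the κB consensus. *Il6* (chr5:30012864-30013163, plus strand) rose with both stimuli, while *Nfkbie* (chr17:45555450-45555749, plus strand) was the PIC-specific gene with a match, and neither window held the interferon-response core.
Il6: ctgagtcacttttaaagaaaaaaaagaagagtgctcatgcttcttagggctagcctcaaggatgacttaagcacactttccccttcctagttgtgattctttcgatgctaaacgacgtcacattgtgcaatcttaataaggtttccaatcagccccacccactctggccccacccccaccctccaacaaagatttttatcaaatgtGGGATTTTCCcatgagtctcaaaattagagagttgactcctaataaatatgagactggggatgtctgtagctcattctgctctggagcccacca
Nfkbie: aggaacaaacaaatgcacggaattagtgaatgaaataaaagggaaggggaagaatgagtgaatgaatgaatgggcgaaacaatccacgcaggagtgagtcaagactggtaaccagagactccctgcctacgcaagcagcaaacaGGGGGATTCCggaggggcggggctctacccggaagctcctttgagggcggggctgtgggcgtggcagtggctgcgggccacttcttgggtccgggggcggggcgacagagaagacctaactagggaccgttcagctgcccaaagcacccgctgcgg

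The number of genes on each side depended on library scaling. The mean TMM factor was 0.999 in the LPS samples and 0.913 in the PIC samples, a log2 ratio of -0.13. The median log2FC of all genes tested was -0.01 with TMM, 0.00 with RLE, -0.03 with the upper quartile and -0.14 with total counts, so the last moved every gene downward by about the TMM ratio. The calls were 2179 higher and 1619 lower with RLE, 1708 and 2102 with the upper quartile, and 985 and 4373 with total counts. 985 genes were higher (7.19% of the genes tested) and 1619 lower (11.8%) under all 4 scalings, and 1 gene was called in opposite directions. The 1183 genes called with TMM but not under all 4 had a median size of the log2FC of 0.17, against 0.38 for those that were. At an FDR below 0.01 and a log2FC beyond 1, there were 146 genes higher and 31 lower with TMM, and 116 and 64 with total counts, so the lower side also moved among the larger differences. Genes larger with PIC numbered 477 with TMM, 484 with RLE, 474 with the upper quartile and 492 with total counts, and 420 were in this class under all 4. Genes larger with LPS numbered 10, 10, 10 and 13, with 6 in common. PIC-specific genes numbered 12, 9, 14 and 20, with 5 in common, and LPS-specific genes 0, 0, 0 and 1.

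The 329 raised genes larger with PIC were also summed as a share of each sample's counts, which amounts to total count scaling. They took 2.06% ± 0.078 of all counts in the control (SD, n = 3), 6.66% ± 0.21 with LPS and 10.01% ± 0.084 with PIC. These genes were chosen as raised by LPS and further by PIC, so the order of the shares follows from the choice. No scaling is known to be right here, since the sources used here name no spike-in.

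**Figure D4:**
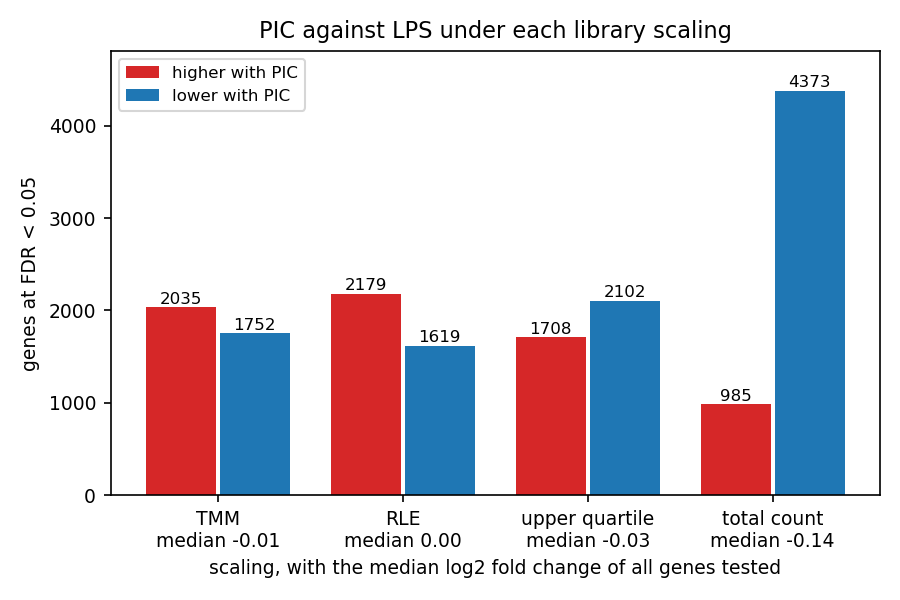
Number of genes higher (red) and lower (blue) with PIC than with LPS at an FDR below 0.05 under each library scaling, with the median log2 fold change of all genes tested under each name. Total count scaling gives 985 genes higher and 4373 lower, while the other 3 give between 1708 and 2179 higher.

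The same difference was measured in the TBHQ-pretreated cells. Their samples took part in the shared fit, which set the filter and the spread, but not in the contrasts that made the classes. PIC + TBHQ against LPS + TBHQ gave 1623 genes higher (11.9% of those tested) and 1149 lower (8.39%). Of the raised genes larger with PIC, 272 of 329 were higher there, and of the lowered ones 123 of 148 were lower. Over all genes called, 1185 of 2035 higher genes (58.2%) and 731 of 1752 lower genes (41.7%) were called on the same side. These totals hold the class itself. The class also had larger differences without TBHQ, with a median size of the log2FC of 0.65 against 0.30 over all genes called. Its higher shares therefore follow in part from the choice. The same direction was called for 6 of 7 raised and 3 of 5 lowered PIC-specific genes and for 378 of 559 intermediate genes. Of the 10 genes larger with LPS, only 1 was called in the same direction and 1 in the opposite direction.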

How the data were processed

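RNA sequencing of poly(A)-enriched RNA from 18 samples was used, with 3 samples in each of 6 groups. The paper describes the libraries as strand-specific, while the sample notes name both directional and non-directional libraries, and the setting for strand in counting is not stated. The count values are raw whole numbers per gene as deposited, made by the authors with HISAT2 2.0.5, StringTie 1.3.3b and featureCounts 1.5.0-p3 per the submitters' notes. The FPKM values were computed by the authors from gene length and library size, as deposited. Gene length is listed by the authors in bases. Gene positions are those of the authors' files, whose build is named as both GRCm38 and mm39. Promoter windows are on GRCm38.p6. Of 57 genes compared, only 1 had its start in the authors' files inside such a window, so the 2 sets of positions are not on the same build.

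Counts were fitted with edgeR 4.0.16 (R 4.3.3) over all 18 samples, with 1 coefficient per group, filterByExpr, TMM scaling and the quasi-likelihood test. The common dispersion was 0.00192. Alternatives were RLE, upper quartile and total count scaling, DESeq2 1.42.0, limma 3.58.1 on FPKM, other filters, thresholds and intervals, a replicate block, and leaving out each control, LPS and PIC sample. A fold against a group at 0 used a floor of 3 counts per sample, which covers counting error only. Replicates differed by more than counting error, with a chi-square per degree of freedom of 2.54 to 4.34, and the median SD of log2 CPM was 0.083 in the control, 0.096 with LPS and 0.093 with PIC. The fits were tested on simulated data. Tables and figures used Python 3.11.15, pandas 2.3.3, numpy 2.4.6 and matplotlib 3.10.9.

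Genes were named if they had a symbol, a mean of at least 50 counts and no overlap between PIC and LPS samples. They were the 10 highest and 10 lowest log2FC at an FDR below 0.01, and the 6 largest per class and direction. A fixed set of genes was named by role, and the extremes of each list were added. Some genes of these sets are not reported here. The members and lists were chosen with earlier results of these data known.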

Additional observations from a re-analysis of the deposited data

Results flagged for a closer look

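The difference between PIC and LPS was tested against the same difference after TBHQ, by edgeR's interaction term, adjusted over all genes tested. Of 77 named genes tested, 20 passed an FDR below 0.05, and the 3 given here also differed by a log2FC of more than 1. All 3 were named for an extreme difference without TBHQ, which is 1 side of this test, so a smaller difference with TBHQ follows in part from the choice. Over all genes tested, 251 passed and 19 of them differed by more than 1. For *Angptl2* the log2FC was -1.19 without TBHQ and -0.07 with it, a difference of 1.12 (SE 0.17, FDR = 1.1e-04), as its level with PIC was 5.05, 5.31 and 7.02 CPM without and 10.3, 13.8 and 11.8 with TBHQ. For *Serpinb2* the log2FC was 2.63 without and 3.95 with TBHQ, a difference of 1.31 (SE 0.21, FDR = 3.0e-04), with 0.89, 1.07 and 1.02 CPM in the LPS + TBHQ samples and 15.4, 15.6 and 15.2 in the PIC + TBHQ samples. For *Mmp12* the log2FC was 2.22 without and 0.83 with TBHQ, a difference of -1.39 (SE 0.18, FDR = 3.1e-06), with 14.5, 13.0 and 12.3 CPM in the LPS + TBHQ samples and 25.3, 23.3 and 22.2 in the PIC + TBHQ samples.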

How the results depend on the processing

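Of 77 named genes tested, 76 were called. Of these, 5 (among them *Mfap1b*, *Tlr4*, *Irf7* and *Csf1r*) lost the call under at least 1 setting and 0 reversed. Total count scaling gave 985 genes higher and 4373 lower with PIC, 20 PIC-specific and 1 LPS-specific. An FDR below 0.01 with a log2FC beyond 1 left 146 higher and 31 lower, and beyond 2 left 40 and 2. DESeq2 gave 7 PIC-specific genes, and no filter gave 1 LPS-specific gene. With an FDR below 0.05 alone as a response there were 781 PIC-specific, 230 LPS-specific and 15 opposite genes, and 2301 larger with PIC and 124 larger with LPS. A response limit of 1.5 gave 2 PIC-specific, 247 larger with PIC and 6 larger with LPS. A no-response interval of 0.3 gave 3 PIC-specific genes, and one of 0.8 gave 134 PIC-specific and 3 LPS-specific. The stricter limits pass fewer genes by construction, and the cause of the other changes was not tested. An alternative chosen after seeing the data, which dropped genes at or under 3 counts in every LPS and control sample, gave 11 PIC-specific genes. Leaving out each control, LPS and PIC sample in turn, but no TBHQ sample, gave 1794 to 2015 higher, 1353 to 1762 lower, 9 to 18 PIC-specific, 0 to 0 LPS-specific, 0 to 0 opposite, 432 to 493 larger with PIC and 7 to 11 larger with LPS. A replicate block gave 2063 higher and 1773 lower. Samples with the same number did not deviate together (correlations -0.08 to 0.06), so the number was not taken as a pairing. With 3 samples a group and a median difference of 0.30, small differences depend most on scaling, and genes with few counts cannot be shown to be unchanged.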
